A study of Mus musculus with 6 samples.

Results

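The genes described here are 10 of the oxygen-sensing pathway of hypoxia-inducible factor 1 (HIF1): the oxygen-regulated subunit Hif1a, the prolyl hydroxylases Egln1 and Egln3, and the hypoxia targets Slc2a1, Pdk1, Bnip3, Vegfa, Adm, Ddit4 and Ndrg1. They were chosen by name, and all 10 were present among the 14003 genes of the deposited expression table. After a filter on low values, 9 of the 10 members and 10338 genes in all entered the test, and Adm was the member below the filter.

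HIF1 is a transcription factor of an oxygen-labile α subunit, encoded by Hif1a, and a stable β subunit, encoded by Arnt. In oxygenated cells the EGLN prolyl hydroxylases mark the α subunit, the von Hippel-Lindau ubiquitin ligase captures it and the proteasome destroys it, so that much of HIF1 control acts on protein and not on mRNA. In low oxygen the subunit escapes this fate, pairs with its partner at hypoxia response elements and switches on genes of glycolysis, angiogenesis and mitochondrial turnover. In bone, osteoblast HIF1 and its target VEGF couple the growth of vessels to the growth of bone.

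The cells were labelled MC3T3-E1, a mouse line of preosteoblasts taken from the skull vault, and the labels name no low-oxygen step. The treated group was 3 libraries of cells exposed to 200 µM sulfasalazine for 24 h, and the control group was 3 libraries of untreated cells, for which no vehicle is named. Sulfasalazine is an anti-inflammatory drug that also inhibits the cystine-glutamate exchanger xCT. RNA was measured by bulk sequencing, and a level is given as FPKM, the fragments of a gene scaled to its length and to the fragments mapped in the library. Depth recovered from the FPKM values lay between 19247897 and 21579133 reads on genes in the sulfasalazine libraries and between 15980935 and 20828707 in the control libraries. Control replicate 3 was the shallowest library and stood apart from the other control libraries: the chi-square of its recovered reads over genes, per degree of freedom, was 97.1 against control replicate 1 and 76.9 against control replicate 2, against 31.1 between replicates 1 and 2. Calls of Hif1a and its regulators, and list counts, that change without it are given both ways. The labels do not say that replicates were separate cultures, so p-values measure the spread between these libraries, which may be technical.

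The labelled cell type was checked against marker genes. Of 8 osteoblast markers 5 were in the table. Sp7, Col1a1 and Bglap averaged below 1 FPKM, so 3 of the 5 go against the labelled lineage. The osteoblast marker sum came almost wholly from the markers that averaged 1 FPKM or more. This sum ranged from 869 to 1078 FPKM in the sulfasalazine libraries and from 1539 to 2098 FPKM in the control libraries. Endothelial markers (3 of 4 in the table) summed to 0.0877 to 0.139 FPKM with sulfasalazine and 0.0844 to 0.214 FPKM in controls. The adipocyte markers (2 of 3 in the table) and the skeletal muscle marker (1 of 3 in the table) reached at most 0.0535 and 0.426 FPKM with sulfasalazine and 0.0953 and 0.197 FPKM in controls. Of 4 macrophage markers 2 were in the table, and they summed to 16.3 to 27.7 FPKM in the sulfasalazine libraries and 31.8 to 56.2 FPKM in the control libraries, with Csf1r below 1 FPKM on average. Epithelial markers, 4 of 5 in the table, summed to 1884 to 2093 FPKM with sulfasalazine and 1293 to 1452 FPKM in controls. None of them averaged below 1 FPKM, so all 4 go against the labelled lineage. Their sum was above the osteoblast sum in the sulfasalazine libraries and below it in the control libraries. The part of these shifts in the results was not tested, and in bulk RNA fewer cells of a type and less RNA per cell cannot be told apart.

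The pathway did not move as a block. With sulfasalazine, 5 of the 9 tested members rose, namely the hydroxylase genes Egln1 and Egln3 and the targets Pdk1, Bnip3 and Ddit4. Another 3 fell, namely Hif1a itself, Vegfa and Ndrg1, and the glucose transporter gene Slc2a1 was not called. The test was limma on log2(FPKM + 1) with Benjamini-Hochberg adjustment over all 10338 genes and a threshold of 0.05, and each log2 fold change sets sulfasalazine over control. Calls were common in this comparison: 37.2% of all tested genes were called higher and 29.3% lower, and the 3 sulfasalazine and 3 control values did not overlap for 71.4% of genes. The 5 of 9 and 3 of 9 calls, and the 7 of 9 members without overlap, are to be read against those shares. The counts of calls in the gene lists below are to be read against the same shares. The median log2 fold change was 0.90 over the tested members and 0.08 over all tested genes, and the median absolute change was 1.02 over the members against 0.68 over all genes.

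**Figure D1:**
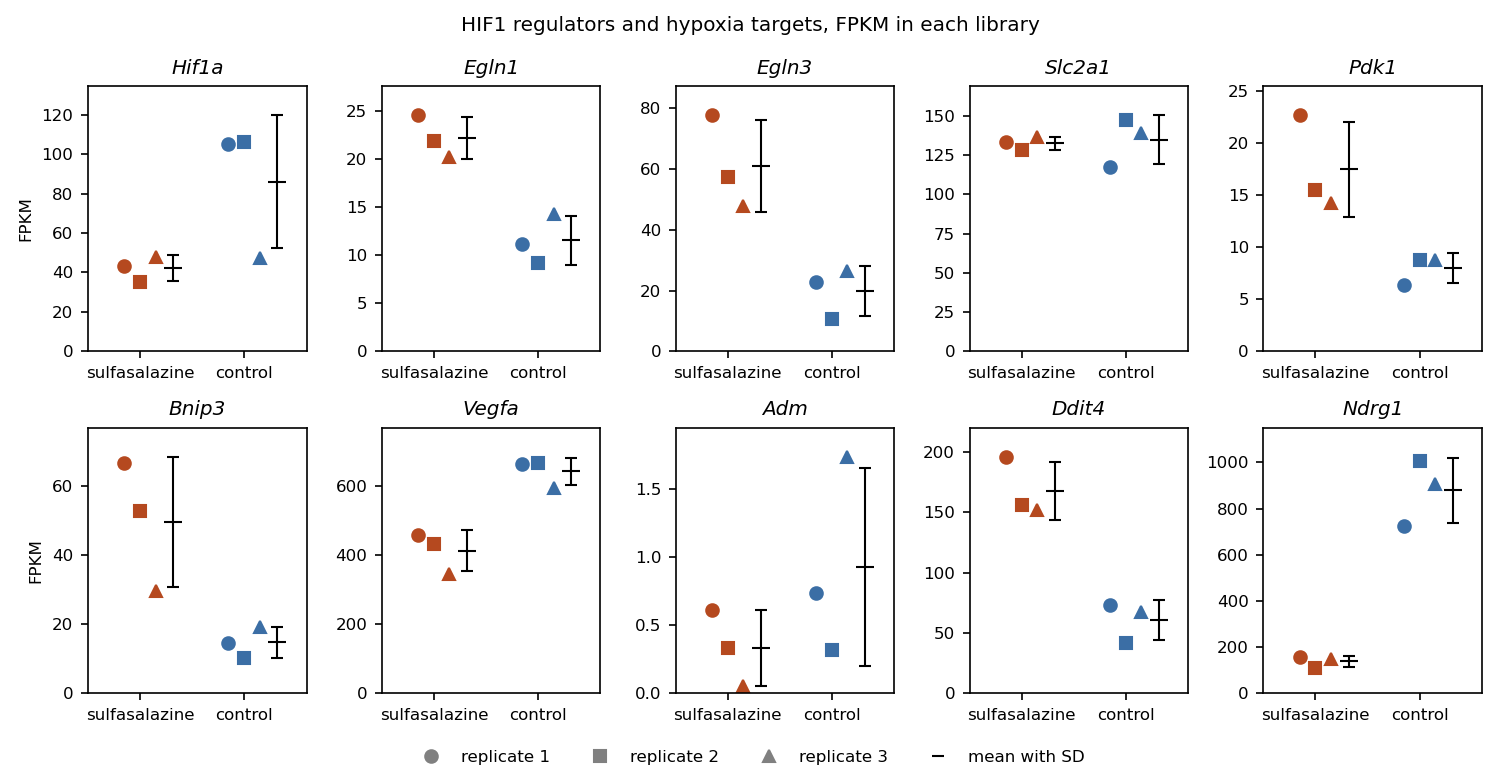
FPKM of the 10 genes in each library, sulfasalazine at left and control at right in each panel, with the mean and SD (n = 3 each) as a bar beside the points. The 3 sulfasalazine points of Egln1, Egln3, Pdk1, Bnip3 and Ddit4 lie above all control points, those of Vegfa and Ndrg1 lie below them, and those of Hif1a, Slc2a1 and Adm overlap with the control points.

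The order of FPKM differed between the groups. The gene lengths behind FPKM are not given, and an order between genes depends on them. The ratio of recovered reads to FPKM did not follow exonic length. In sulfasalazine replicate 1, Ndrg1 read 158 FPKM from 3578 reads with 6596 exonic bases. Egln1 in that library read 24.5 FPKM from 1949 reads with 3594 exonic bases. The family sums and shares below rest on the same lengths. In the sulfasalazine libraries the order from high to low was Vegfa, Ddit4, Ndrg1, Slc2a1, Egln3, Bnip3, Hif1a, Egln1, Pdk1 and Adm. There the neighbours Ddit4 and Ndrg1, Ndrg1 and Slc2a1, Egln3 and Bnip3, Bnip3 and Hif1a, and Egln1 and Pdk1 overlapped in their libraries' values. In the control libraries the order was Ndrg1, Vegfa, Slc2a1, Hif1a, Ddit4, Egln3, Bnip3, Egln1, Pdk1 and Adm. There Hif1a and Ddit4, Egln3 and Bnip3, and Bnip3 and Egln1 overlapped.

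The promoter sequences of 4 members are shown because they span the directions seen: Bnip3 and Egln3, the members with the largest rises, and Hif1a and Vegfa, the regulator and the angiogenic target that fell. Each is the RefSeq window on GRCm38.p6 from 250 bases before to 50 bases after an annotated start, written 5′ to 3′ on the gene's strand, and capitals mark ACGTG or GCGTG, the usual core of a hypoxia response element, on either strand (so that CACGT and CACGC are the same cores read from the other strand). The Bnip3 window is chr7:138909457-138909756 on the minus strand, that of Egln3 chr12:54203825-54204124 on the minus strand, that of Hif1a chr12:73907617-73907916 on the plus strand, and the window at the outermost start of Vegfa chr17:46032328-46032627 on the minus strand.
Bnip3: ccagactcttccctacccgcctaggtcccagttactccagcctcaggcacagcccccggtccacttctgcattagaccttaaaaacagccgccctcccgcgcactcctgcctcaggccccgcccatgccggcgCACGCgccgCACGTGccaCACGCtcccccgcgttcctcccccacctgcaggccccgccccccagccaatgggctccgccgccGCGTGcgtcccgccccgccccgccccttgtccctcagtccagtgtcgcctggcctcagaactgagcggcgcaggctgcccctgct
Egln3: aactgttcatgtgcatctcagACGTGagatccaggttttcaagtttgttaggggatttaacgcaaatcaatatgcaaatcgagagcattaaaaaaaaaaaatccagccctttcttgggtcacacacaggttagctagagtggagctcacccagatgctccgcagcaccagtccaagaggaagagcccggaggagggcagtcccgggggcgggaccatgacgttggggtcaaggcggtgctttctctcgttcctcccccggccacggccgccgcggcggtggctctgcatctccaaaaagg
Hif1a: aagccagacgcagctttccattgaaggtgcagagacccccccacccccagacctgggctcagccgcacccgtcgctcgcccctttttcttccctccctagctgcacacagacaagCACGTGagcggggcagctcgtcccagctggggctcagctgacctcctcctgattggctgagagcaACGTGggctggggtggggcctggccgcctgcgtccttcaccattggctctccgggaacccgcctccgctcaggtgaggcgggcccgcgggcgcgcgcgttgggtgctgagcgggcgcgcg
Vegfa: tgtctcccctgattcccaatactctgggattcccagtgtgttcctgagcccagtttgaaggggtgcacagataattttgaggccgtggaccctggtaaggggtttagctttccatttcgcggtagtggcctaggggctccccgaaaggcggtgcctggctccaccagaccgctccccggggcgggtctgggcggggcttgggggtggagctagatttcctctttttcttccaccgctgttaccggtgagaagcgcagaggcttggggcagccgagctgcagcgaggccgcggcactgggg
In Bnip3 the matches began 117, 108, 107, 99 and 35 bases before the start, and the palindrome CACGTG accounts for the overlapping pair of matches at 108 and 107. Egln3 held 1 match, at 229 bases. Hif1a held the same palindrome at 135 and 134 bases and a further ACGTG at 70 bases. The Vegfa window shown held none, whereas a second Vegfa window, chr17:46025114-46025413, held matches at 218 and 211 bases. RefSeq windows were found for 9 of the members, 11 windows in all; ACGTG was present in 7 of the 11 and either core in 9. Over all 32851 windows of the same length in the table, 19.6% held ACGTG and 43.8% held either core. These are letters in a window and say nothing of binding, and the motif was present in windows of genes that rose, fell and were not called.

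Hif1a mRNA (chromosome 12, 73901375 to 73947530, GRCm38) was lower with sulfasalazine, but the call rested on few libraries. It stood at 43.4, 35.3 and 48.1 FPKM in the sulfasalazine libraries, against 104.9, 105.9 and 47.4 FPKM in the control libraries. Control replicate 3 lay inside the sulfasalazine range, and the other two control libraries lay far above it. The means were 42.2 ± 6.46 FPKM with sulfasalazine and 86.1 ± 33.5 FPKM in controls (SD, n = 3 each), a log2 fold change of -0.93 (SE 0.30, limma adjusted p = 0.023). Without control replicate 3 the change was -1.31 (limma adjusted p = 6.6e-05), and it was -1.41 (limma adjusted p = 3e-05) with replicate 3 of both groups left out. The call was lost without sulfasalazine replicate 2 (-0.81, limma adjusted p = 0.072), without control replicate 1 (-0.75, limma adjusted p = 0.083) and without control replicate 2 (-0.74, limma adjusted p = 0.092). Of its exonic bases 5.6% lie in a gene on the opposite strand, Gm15283, whose reads cannot be told apart without strand-aware counting.

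Both hydroxylase genes rose. Egln3, which encodes PHD3 and is itself a classic hypoxia target, lies at chromosome 12, 54178981 to 54203860. Its level was 77.7, 57.3 and 48.0 FPKM in the sulfasalazine libraries and 22.8, 10.7 and 26.4 FPKM in the control libraries. Every sulfasalazine value was above every control value, with a 3.05-fold ratio of means and a log2 fold change of 1.62 (SE 0.32, limma adjusted p = 0.0023). Egln1 encodes PHD2, the main oxygen sensor for HIF1α, at chromosome 8, 124908587 to 124949324. Its level was 24.5, 21.9 and 20.2 FPKM with sulfasalazine and 11.2, 9.18 and 14.3 FPKM in controls. The groups were again separate, at 22.2 ± 2.19 and 11.6 ± 2.56 FPKM (sulfasalazine and control, SD, n = 3 each) and a log2 fold change of 0.90 (SE 0.18, limma adjusted p = 0.0025).

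The third family member, Egln2, which encodes PHD1, averaged 85.8 ± 3.29 FPKM with sulfasalazine and 37.0 ± 5.81 FPKM in controls (SD, n = 3 each; log2 fold change 1.20, SE 0.13; limma adjusted p = 0.00012). These 3 hydroxylase genes together summed to 191, 166 and 150 FPKM in the sulfasalazine libraries and 64.3, 60.3 and 81.0 FPKM in the control libraries. The summed level was thus higher in every sulfasalazine library than in any control library. Egln1 made up 12.9%, 13.2% and 13.4% of the sum with sulfasalazine and 17.4%, 15.2% and 17.6% in controls, while the share of Egln3 overlapped between the groups. Over the 25 sums and shares compared within families, 14 reached 0.1, the smallest two-sided exact permutation p that 3 against 3 allows, and none passed adjustment (smallest adjusted exact permutation p = 0.179).

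**Figure D2:**
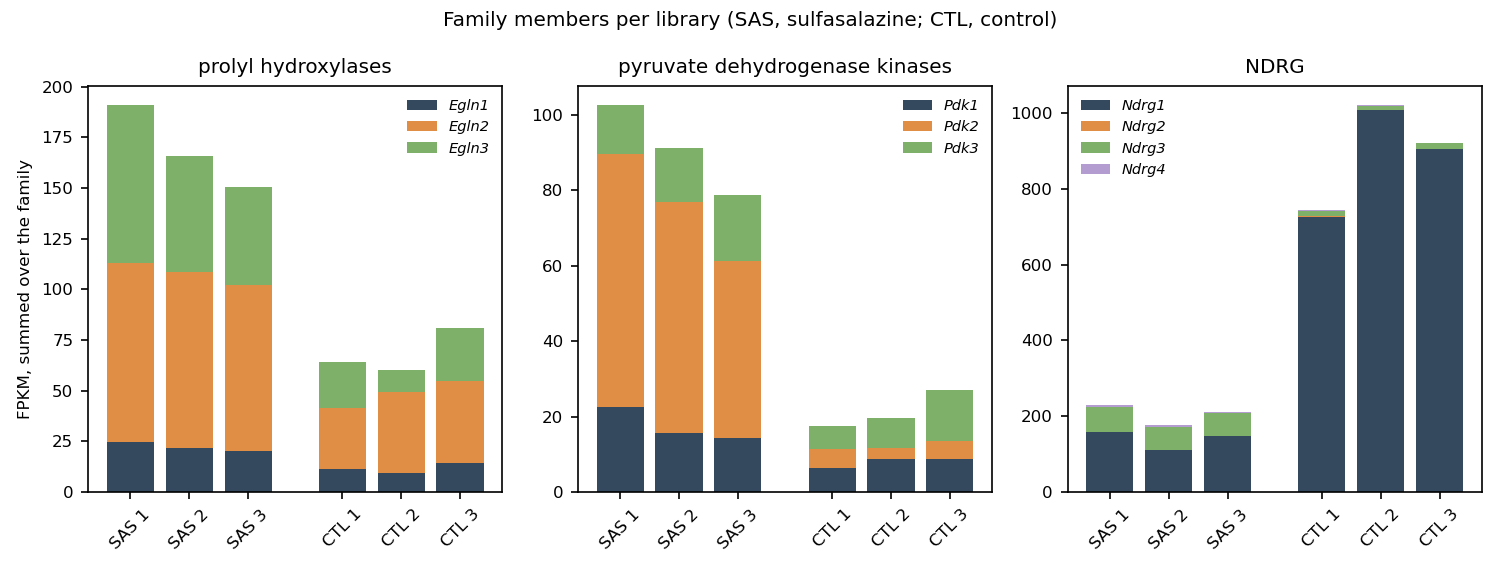
FPKM summed over 3 gene families in each library, with sulfasalazine libraries (SAS) left of control libraries (CTL) and each bar divided by gene. The prolyl hydroxylase and pyruvate dehydrogenase kinase sums are higher in all sulfasalazine libraries, while the NDRG sum is lower and Ndrg3 fills 29.9% of it on average against 1.63% in controls.

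Elsewhere in the regulatory machinery the genes split. Among the other HIF subunits and partners, Epas1, which encodes HIF2α, averaged 4.15 ± 1.84 FPKM with sulfasalazine and 0.128 ± 0.0422 FPKM in controls (SD, n = 3 each; log2 fold change 2.13, SE 0.23, limma adjusted p = 0.00011). Its 3 sulfasalazine libraries read 2.86, 3.33 and 6.26 FPKM, so the gene was near 0 in controls and low with sulfasalazine, and adding 0.1 in place of 1 gave a log2 fold change of 4.15 and voom on recovered reads 4.86. Arnt averaged 25.0 FPKM with sulfasalazine and 32.3 FPKM in controls and was not called (limma adjusted p = 0.069), and Arnt2 was below the filter. Arnt passed the threshold without control replicate 3 (log2 fold change -0.48, limma adjusted p = 0.0039), and with median-of-ratios scaling (-0.45, limma adjusted p = 0.023) or quantile normalization (-0.42, limma adjusted p = 0.027).

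Of 11 other hydroxylase and degradation genes, 10 were tested, 2 rose and 4 fell (3 and 4 without control replicate 3). The risers were Egln2 and Rbx1, the RING subunit of the ubiquitin ligase, which averaged 102 FPKM with sulfasalazine and 55.6 FPKM in controls (log2 fold change 0.86, SE 0.11, limma adjusted p = 0.00019). Eloc, which encodes elongin C of the same ligase, averaged 33.9 FPKM with sulfasalazine and 62.5 FPKM in controls (log2 fold change -0.88, limma adjusted p = 0.003, SE 0.18). The scaffold gene Cul2 fell by 0.59 on the log2 scale (limma adjusted p = 0.013), a call lost without sulfasalazine replicate 1 or 2 (limma adjusted p up to 0.059). Siah1b and Siah2, ubiquitin ligase genes that act on the hydroxylases, had log2 fold changes of -0.65 and -0.57 (limma adjusted p = 0.033 and 0.037). The Siah1b call was lost with no filter and without sulfasalazine replicate 1 or 2 or control replicate 2 or 3 (limma adjusted p up to 0.12), and 11.2% of its 50-base stretches occur in other genes, chiefly Siah1a. The Siah2 call was lost with no filter, with the replicate block and without sulfasalazine replicate 1 or 2 or control replicate 1 or 2 (limma adjusted p up to 0.13). Vhl, the substrate receptor, averaged 53.1 FPKM with sulfasalazine and 59.9 FPKM in controls and was not called (limma adjusted p = 0.25). Hif1an, the asparaginyl hydroxylase that blocks coactivator binding, averaged 26.9 and 22.4 FPKM (sulfasalazine and control, limma adjusted p = 0.086). Elob (elongin B, log2 fold change 0.34, limma adjusted p = 0.087) and Siah1a (log2 fold change -0.37, limma adjusted p = 0.065) were not called either, and P4htm was below the filter. Without control replicate 3 both passed the threshold, Elob at 0.48 (limma adjusted p = 0.0076) and Siah1a at -0.46 (limma adjusted p = 0.018). Quantile normalization also took both past it, and median-of-ratios scaling or no intensity trend took Siah1a past it. Siah1a shares part of its sequence with Siah1b.

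Of 7 coactivator and modulator genes 6 were tested, 2 rose and 2 fell (2 and 3 without control replicate 3). Hsp90ab1, which encodes a chaperone that stabilises HIF1α, averaged 6823 ± 254 FPKM with sulfasalazine and 1467 ± 216 FPKM in controls (SD, n = 3 each; log2 fold change 2.23, SE 0.18, limma adjusted p = 2.5e-05). Pkm, a glycolytic enzyme gene whose product also binds HIF1α, rose by a log2 fold change of 1.02 (limma adjusted p = 0.0027), although other genes' transcripts hold 25.8% of its 50-base stretches. Cited2, a hypoxia target that competes with HIF1α for the coactivator p300, averaged 32.5 ± 2.32 FPKM with sulfasalazine and 109 ± 21.8 FPKM in controls (SD, n = 3 each; log2 fold change -1.70, SE 0.15, limma adjusted p = 4.1e-05). Crebbp, a coactivator gene, had a log2 fold change of -0.71 (limma adjusted p = 0.041; -1.11 without replicate 3 of both groups), and its call was lost with no filter, without any 1 of the sulfasalazine libraries or without control replicate 1 or 2 (limma adjusted p up to 0.14). Ep300 and Rack1 were not called, and Cited4 was below the filter. Ep300 read 71.3, 60.7 and 73.2 FPKM with sulfasalazine and 125, 94.2 and 47.1 FPKM in controls, so control replicate 3 lay below all sulfasalazine values. Without that library its log2 fold change was -0.66 (limma adjusted p = 0.0034).

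Glucose metabolism gave 1 member without a call. Slc2a1 encodes GLUT1, the main glucose importer of proliferating cells, at chromosome 4, 119108711 to 119137983. Its level was 133, 128 and 136 FPKM in the sulfasalazine libraries and 117, 147 and 139 FPKM in the control libraries. The sulfasalazine values lay inside the control range, with a log2 fold change of -0.02 (95% confidence interval -0.28 to 0.25, limma adjusted p = 0.91). Slc2a1 supplied at least 99.7% of the summed class I glucose transporter FPKM in every library, and Slc2a3 and Slc2a4 stayed below the filter.

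Downstream of the transporter, 10 of the 16 other glucose uptake and glycolysis genes tested rose and 1 fell, with a median log2 fold change of 0.97 against 0.08 over all tested genes. Without control replicate 3, 12 of them rose and 1 fell. Pfkl, the liver-type phosphofructokinase gene, averaged 260 FPKM with sulfasalazine and 24.7 FPKM in controls (log2 fold change 3.41, SE 0.31, limma adjusted p = 4.4e-05). Aldoc, an aldolase gene, averaged 12.2 FPKM with sulfasalazine and 0.523 FPKM in controls (log2 fold change 3.11), and Gpi1, the glucose-6-phosphate isomerase gene, averaged 1054 FPKM and 246 FPKM (sulfasalazine and control, log2 fold change 2.10). Gapdh averaged 409 FPKM with sulfasalazine and 96.0 FPKM in controls (log2 fold change 2.00), although other genes' transcripts hold 24.7% of its 50-base stretches. For Gpi1 that share is 8.2%, and 11.5% of its exonic bases lie in an opposite-strand gene. The 1 gene that fell, named after its value was seen, was Hk2, an inducible hexokinase gene and a known HIF1 target, at 18.9 FPKM with sulfasalazine and 61.5 FPKM in controls (log2 fold change -1.66, SE 0.18, limma adjusted p = 0.00011). Ldha and Pgk1, also named after their values were seen as standard HIF1 targets, were not called, at 934 and 258 FPKM with sulfasalazine and 876 and 279 FPKM in controls. Other genes, chiefly Pgk1-rs7, hold 53.9% of the 50-base stretches of Pgk1, and for Ldha that share is 9.0%.

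Pdk1 encodes a kinase that shuts pyruvate out of the mitochondrial oxidation cycle, at chromosome 2, 71873224 to 71903858. It stood at 22.7, 15.5 and 14.3 FPKM in the sulfasalazine libraries and at 6.36, 8.82 and 8.82 FPKM in the control libraries. The groups did not overlap, and the log2 fold change was 1.02 (SE 0.21, limma adjusted p = 0.003). Its relative Pdk2 rose to 58.4 ± 10.3 FPKM with sulfasalazine against 4.24 ± 1.12 FPKM in controls (SD, n = 3 each; log2 fold change 3.51, SE 0.21, limma adjusted p = 8.9e-06). Within the summed FPKM of Pdk1, Pdk2 and Pdk3, the share of Pdk1 was 22.1%, 17.0% and 18.1% with sulfasalazine and 36.1%, 45.1% and 32.6% in controls. Pdk2 made up 65.2%, 67.2% and 59.7% with sulfasalazine and 28.4%, 15.1% and 17.6% in controls. By FPKM it was the leading kinase transcript in all sulfasalazine libraries and in no control library. Pdp1, the opposing phosphatase gene, averaged 5.08 FPKM with sulfasalazine and 2.18 FPKM in controls (log2 fold change 0.93, SE 0.16, limma adjusted p = 0.0011). Pdk3 had a log2 fold change of 0.70 (limma adjusted p = 0.042) and lost its call in 8 of the 15 alternatives (limma adjusted p up to 0.13), those leaving out any single library other than control replicate 3 among them.

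Bnip3 encodes a mitochondrial receptor for mitophagy, at chromosome 7, 138890836 to 138909519. Its level was 66.5, 52.6 and 29.5 FPKM in the sulfasalazine libraries and 14.6, 10.4 and 19.3 FPKM in the control libraries. The groups were separate though the sulfasalazine libraries spread widely, at 49.5 ± 18.7 FPKM against 14.8 ± 4.49 FPKM in controls (SD, n = 3 each), a 3.35-fold ratio. The log2 fold change was 1.64 (SE 0.31, limma adjusted p = 0.002). Of its exonic bases 22.3% lie in Gm45507 on the opposite strand and transcripts of other genes hold 16.5% of its 50-base stretches, so its reads are partly uncertain. Bnip3l, the related mitophagy receptor NIX, averaged 80.0 ± 1.97 FPKM with sulfasalazine and 37.1 ± 12.7 FPKM in controls (SD, n = 3 each; log2 fold change 1.14, SE 0.21, limma adjusted p = 0.0018), with 20.8% of its 50-base stretches in other genes, chiefly a pseudogene. Higd1a, a mitochondrial hypoxia-induced gene, had a log2 fold change of -0.40 (limma adjusted p = 0.036), and its call was lost in 6 of the 15 alternatives, among them with the replicate block and without sulfasalazine replicate 2 or 3 or control replicate 2 (limma adjusted p up to 0.12).

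Vegfa, the chief angiogenic factor that osteoblasts secrete, fell. It lies at chromosome 17, 46016993 to 46032369. The level was 459, 432 and 346 FPKM in the sulfasalazine libraries and 664, 666 and 595 FPKM in the control libraries. Each sulfasalazine library lay below each control library, yet Vegfa still had the highest FPKM of the members with sulfasalazine. The means were 412 ± 59.1 FPKM with sulfasalazine and 642 ± 40.4 FPKM in controls (SD, n = 3 each; log2 fold change -0.65, SE 0.14, limma adjusted p = 0.0035). Its share of all VEGF ligand FPKM was 84.9% ± 0.581 with sulfasalazine and 85.1% ± 1.83 in controls (SD, n = 3 each; exact permutation p = 0.9).

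Of 5 tested VEGF family ligands and receptors other than Vegfa, 3 fell and none rose. Over all tested genes, 29.3% were called lower and 37.2% higher. Vegfb averaged 69.3 FPKM with sulfasalazine and 101 FPKM in controls (log2 fold change -0.54, SE 0.13, limma adjusted p = 0.0055). Pgf, placental growth factor, averaged 3.51 FPKM with sulfasalazine and 11.1 FPKM in controls (log2 fold change -1.42, limma adjusted p = 0.00056, SE 0.21). The coreceptor gene Nrp2 averaged 20.3 FPKM with sulfasalazine and 63.4 FPKM in controls (log2 fold change -1.58, SE 0.16, limma adjusted p = 8.3e-05). Other vascular hypoxia targets rose: Angptl4, a secreted lipase inhibitor, averaged 92.5 FPKM with sulfasalazine and 13.3 FPKM in controls (log2 fold change 2.79, limma adjusted p = 0.00013). Hmox1, the haem oxygenase gene that NRF2 also drives, averaged 622.5 FPKM with sulfasalazine and 199 FPKM in controls (log2 fold change 1.63, limma adjusted p = 2.3e-05).

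Adm encodes adrenomedullin, a vasodilator peptide and widely used hypoxia marker, at chromosome 7, 110627661 to 110629820. It read 0.614, 0.333 and 0.0574 FPKM in the sulfasalazine libraries and 0.736, 0.319 and 1.73 FPKM in the control libraries. These came from 12, 6 and 1 recovered reads with sulfasalazine and 13, 6 and 25 in controls, and the groups overlap. The gene did not enter the test, and with the filter removed its log2 fold change was -0.49 (SE 0.28, limma adjusted p = 0.18), so a difference was not detectable at this depth. The related peptide gene Adm2 averaged 2.61 ± 1.36 FPKM with sulfasalazine and 34.4 ± 7.72 FPKM in controls (SD, n = 3 each; log2 fold change -3.34, SE 0.29, limma adjusted p = 3.8e-05). Ramp1, a receptor accessory protein gene, averaged 34.8 FPKM with sulfasalazine and 8.15 FPKM in controls (log2 fold change 2.00, limma adjusted p = 5.9e-05).

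Ddit4 encodes REDD1, a stress- and hypoxia-induced brake on mTORC1, at chromosome 10, 59949669 to 59951834. Its level was 195, 156 and 152 FPKM in the sulfasalazine libraries and 73.4, 41.8 and 67.0 FPKM in the control libraries. The lowest sulfasalazine library was above the highest control library, and the log2 fold change was 1.48 (SE 0.21, limma adjusted p = 0.00044), the smallest adjusted p among the members that rose.

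Ndrg1, a differentiation- and stress-induced gene and a strong hypoxia target, had the largest absolute log2 fold change of the tested members. It lies at chromosome 15, 66929318 to 66969640. The level was 158, 110.5 and 148 FPKM in the sulfasalazine libraries and 727, 1007 and 905 FPKM in the control libraries. All sulfasalazine libraries lay far below all control libraries, with means of 139 ± 25.2 and 879.5 ± 142 FPKM (sulfasalazine and control, SD, n = 3 each). The log2 fold change was -2.66 (SE 0.18, limma adjusted p = 1.2e-05), and 8.4% of its exonic bases lie in Gm17035 on the opposite strand. Ndrg3 moved the other way, at 61.1 ± 3.58 FPKM with sulfasalazine and 14.2 ± 1.42 FPKM in controls (SD, n = 3 each; log2 fold change 2.03, SE 0.12, limma adjusted p = 9.1e-06). Ndrg1 held 69.0%, 62.4% and 70.1% of the summed NDRG family FPKM in the sulfasalazine libraries and 97.8%, 98.7% and 98.3% in the control libraries.

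**Figure D3:**
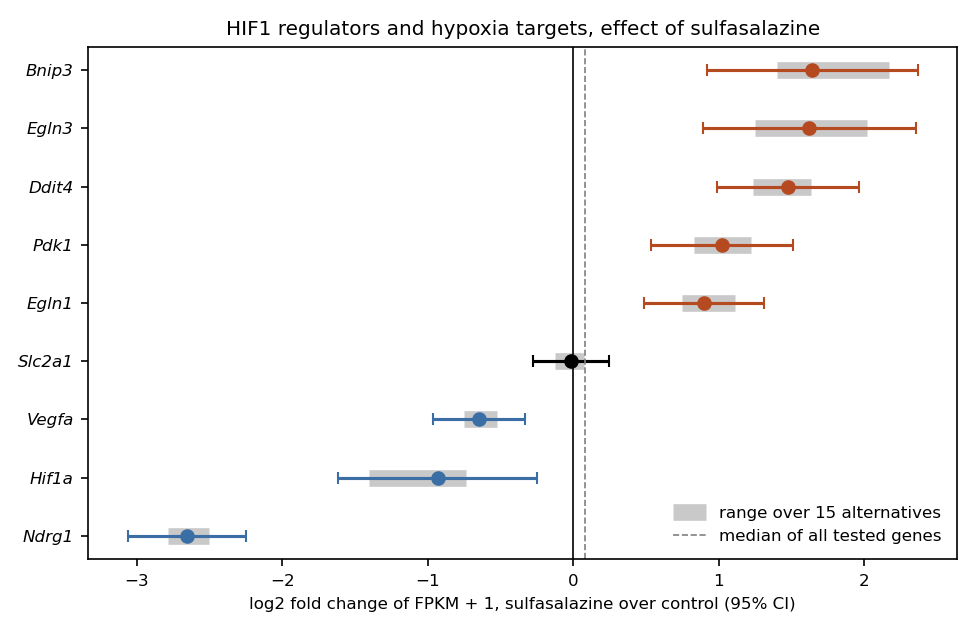
Log2 fold change of FPKM + 1 (sulfasalazine over control) for the 9 tested genes, with points for the estimate, bars for the 95% confidence interval, grey bands for the range over 15 alternative analyses and a dashed line at the median of all tested genes, 0.08. Ndrg1 stands at -2.66 and Bnip3 at 1.64, the bands of all but Slc2a1 stay on 1 side of 0.

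Within the groups many members put the libraries in a like order. Sulfasalazine replicate 1 was the highest and replicate 3 the lowest sulfasalazine library for 5 of the 5 members that rose, and also for Vegfa, which fell, and for the untested Adm. That order was found for 15.3% of all tested genes and 18.4% of genes called higher. In the controls, replicate 3 was highest for 4 of the 5 members that rose and replicate 2 was lowest for 4 of the 5. Among all genes called higher, control replicate 3 was highest for 64.0% and control replicate 2 was lowest for 43.3%. Sulfasalazine replicate 1 was also the deepest and control replicate 3 the shallowest library, and the part of depth in this order was not tested.

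Over the wider set of hypoxia targets, 43 of 57 listed genes beyond the members were tested, 18 rose, 12 fell and 13 were not called, with a median log2 fold change of 0.37 against 0.08 over all tested genes. The shares, 41.9% higher and 27.9% lower, lie near the 37.2% and 29.3% of all tested genes. Without control replicate 3, 22 of these targets rose and 14 fell. Among them were groups with most calls up and groups with most calls down. Collagen modification gave 3 rises among 5 tested genes: Plod1, a lysyl hydroxylase gene, averaged 108 FPKM with sulfasalazine and 28.6 FPKM in controls (log2 fold change 1.89), and the collagen prolyl hydroxylase genes P4ha1 and P4ha2 rose by 1.73 and 1.11 on the log2 scale. Loxl4, a collagen cross-linking oxidase gene, averaged 10.4 FPKM with sulfasalazine and 90.7 FPKM in controls (log2 fold change -3.01, limma adjusted p = 5.3e-06).

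Of 8 transcription and chromatin feedback genes, 2 rose and 4 fell (2 and 5 without control replicate 3). Mxi1, a MYC antagonist gene, averaged 38.7 FPKM with sulfasalazine and 7.55 FPKM in controls (log2 fold change 2.25, limma adjusted p = 4.7e-05). Bhlhe41, a circadian repressor gene with 19.0% of its exonic bases in a gene on the opposite strand, averaged 21.3 FPKM with sulfasalazine and 66.6 FPKM in controls (log2 fold change -1.60), and the histone demethylase gene Kdm4c fell by 1.08 on the log2 scale. The list of growth, stress and pH targets, to which Ndrg1 and Ddit4 belong, gave no rise and 4 falls among its 6 other tested genes, with a median log2 fold change of -1.15 against 0.08 over all tested genes. Without control replicate 3 it gave 1 rise and 5 falls, the added calls being Plin2, a lipid droplet gene (0.41, limma adjusted p = 0.042), and Tfrc, the transferrin receptor gene (-1.40, limma adjusted p = 0.0049), both named after their values were seen. Stc2, a secreted stress glycoprotein gene, averaged 29.4 FPKM with sulfasalazine and 118 FPKM in controls (log2 fold change -1.96). Hilpda, which encodes a lipid droplet protein that restrains lipolysis, averaged 40.7 FPKM with sulfasalazine and 159 FPKM in controls (log2 fold change -1.89). The lipoprotein receptor gene Vldlr fell by 1.21 and the ER oxidase gene Ero1a by 1.10 on the log2 scale. Among mitochondrial adaptation genes 3 others were tested, of which Bnip3l rose and Higd1a was called lower as given above.

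**Figure D4:**
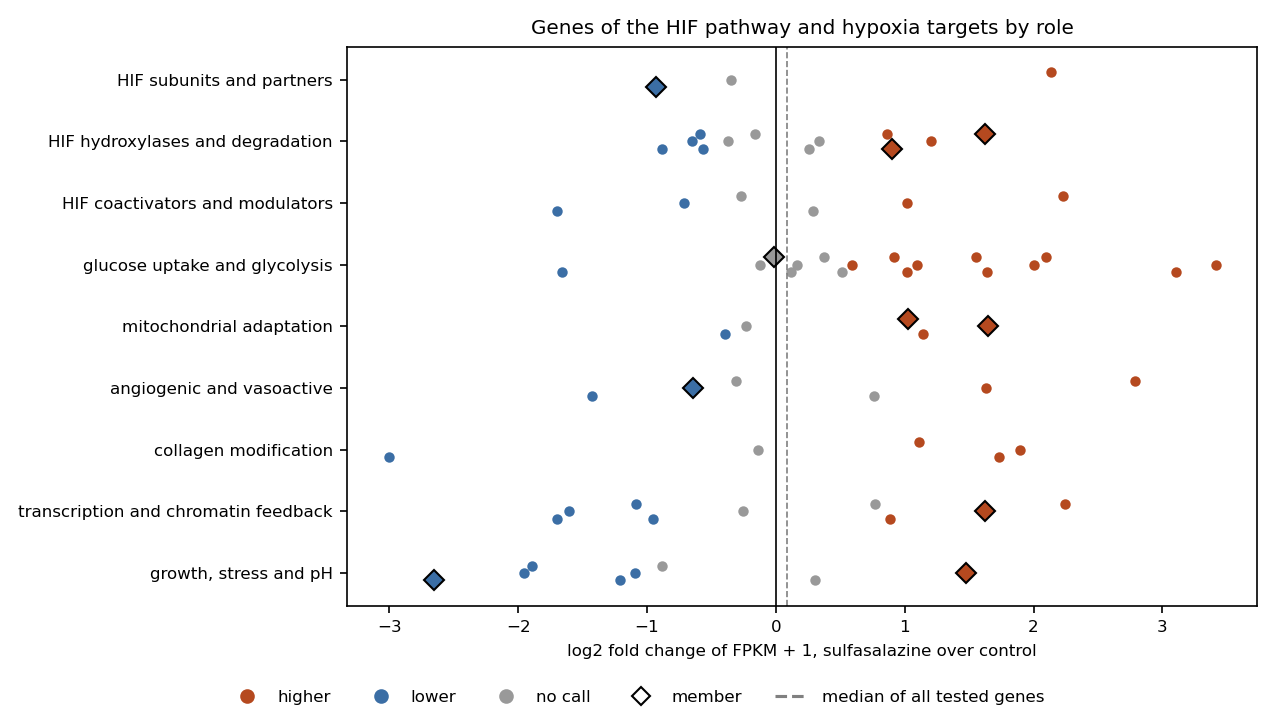
Log2 fold change of FPKM + 1 (sulfasalazine over control) for tested genes of 9 role-based lists, each point 1 gene coloured by its call and each diamond 1 of the 10 members (Egln3, Cited2 and Pkm stand in 2 lists each). Glycolysis points lie mostly right of 0 with a median of 0.97 over the other genes, and growth, stress and pH points lie mostly left with a median of -1.15.

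In the authors' deposited table, which gives a log2 fold change, an adjusted p and a label for each gene, Egln3, Bnip3, Ddit4 and Pdk1 were marked up, Hif1a and Ndrg1 down, and Egln1, Vegfa, Adm and Slc2a1 not significant. Egln1 and Vegfa stood in the authors' deposited table at log2 fold changes of 0.85 and -0.73, both with an adjusted p of 0.00015, and both absolute changes are below 1. For Hif1a the authors' deposited table gives -1.13 with an adjusted p of 5.5e-05.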

How the data were processed

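Bulk RNA-seq libraries of MC3T3-E1 cells were compared, 3 with sulfasalazine and 3 controls, grouped by their titles. The submitters, by their processing notes, used edgeR, HTSeq 0.13.5, HISAT2 2.2.1 and fastp 0.23.0 with the build mm39. Tool roles and strand use are not given in the sources at hand. Per the labels' protocols, a plant RNA kit and a bacterial rRNA depletion kit were used. The authors deposited an FPKM value per gene and library, a library-size-adjusted signal per library, and their own log2 fold change, p-value and adjusted p-value. Of 13982 genes matched to GENCODE M21, 13849 had that release's bounds, so coordinates are GRCm38, although the notes name mm39.

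Genes that reached 1 FPKM in 3 or more of the 6 libraries were tested as log2(FPKM + 1) with limma 3.58.1 in R 4.3.3 (eBayes with a trend, two-sided, no covariates, Benjamini-Hochberg over all genes tested). Adding 1 understates the changes of low genes. Whole reads were recovered from the FPKM steps: 100.0% of 76592 values above 0 were whole within 1e-05 reads, and depth ranged from 15980935 to 21579133 reads. The limma voom test on those reads was an alternative. The replicates of a group differed by more than sampling noise, so all 6 libraries were kept. Sulfasalazine replicates 1 and 2 were the closest within-group pair, at a chi-square per degree of freedom of 6.76. The other sulfasalazine pairs gave 30.3 (replicates 1 and 3) and 34.6 (replicates 2 and 3). Shared sequence was measured as exonic bases in other genes and as 50-base stretches present in other genes' transcripts, both from GENCODE M21.

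Members and lists were chosen with earlier results of these data known. Named genes were all members, all listed HIF regulators, and from each other list up to 4 called genes with the largest absolute change and at least 5 FPKM in the higher group. The alternatives varied the pseudocount (0.1), the low-value filter (none, or 5 FPKM), the scaling (quantile normalization, or median of ratios), the variance trend (none), the model (voom, or a replicate block), the libraries (each left out in turn, or replicate 3 of both groups left out) and the call (a threshold of 0.01, or a minimum absolute log2 change of 1). Python 3.11.15 was used for tables and motif search.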

Additional observations from a re-analysis of the deposited data

How the results depend on the processing

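Of the 9 tested members, 7 kept their call in all 15 alternative fits, namely all but Hif1a, whose call was lost without sulfasalazine replicate 2, control replicate 1 or control replicate 2, and Slc2a1, which was called in none of them. The count of members higher was 5 in every fit. The count of members lower ranged from 2 to 3 when 1 library was left out, and both counts fell with an absolute log2 fold change of at least 1, to 4 members higher and 1 member lower. Under that limit genes higher numbered 1990 and genes lower 1440. The log2 fold change of Slc2a1 was -0.02 and changed sign under quantile normalization (0.077) and when 1 library was left out (range -0.11 to 0.053). That of Ep300 ranged from -0.66 to 0.032 when 1 library was left out. Quantile normalization moved the median of all genes by -0.106 and median-of-ratios scaling by -0.099, on the log2 scale. Same-numbered libraries did not deviate together (correlations 0.036, -0.19 and -0.17), and libraries of unlike number gave -0.14 to 0.21. With 3 libraries per group this check shows no pairing by number but cannot exclude one. With the replicate block, members higher stayed at 5 and members lower at 3, with 3649 genes higher and 2771 genes lower, and of the other named genes Siah2 (limma adjusted p = 0.053) and Higd1a (0.078) lost their calls. Of 747 alternative values for other named genes, 698 kept direction and side of the threshold, 33 lost and 15 gained the call and 1 changed sign. Of 544 alternative counts for the gene lists, 41 moved by over 1.5 times. Depth limits Adm, with 1 to 25 reads a library.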

Other observations

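Ddit4 acts through the TSC complex on mTORC1, and the other genes listed with this brake did not share a direction. Of 7 tested, 3 were higher and 3 lower with sulfasalazine. Rheb, which activates mTORC1 and is no part of the brake, was among the lower. Of the brake genes themselves, Sesn1, Sesn3 and Tsc2 were higher and Sesn2 and Tsc1 lower. The stress sensor genes of the sestrin family split: Sesn1 averaged 9.52 FPKM with sulfasalazine and 1.57 FPKM in controls (log2 fold change 2.03, limma adjusted p = 4.4e-05). Sesn3 averaged 35.9 FPKM with sulfasalazine and 11.2 FPKM in controls (log2 fold change 1.61, limma adjusted p = 0.00056). Sesn2, by contrast, averaged 43.5 FPKM with sulfasalazine and 89.1 FPKM in controls (log2 fold change -1.01, limma adjusted p = 0.00015). Within the complex, Tsc2 averaged 93.5 FPKM with sulfasalazine and 46.8 FPKM in controls (log2 fold change 0.98, limma adjusted p = 0.00019). Tsc1 averaged 12.5 FPKM with sulfasalazine and 21.9 FPKM in controls (log2 fold change -0.75, limma adjusted p = 0.0025), and the mTORC1 activator gene Rheb fell by 0.77 on the log2 scale (limma adjusted p = 0.0034). Tsc1, Rheb and Tbc1d7 were named after their values were seen. Tbc1d7, the other complex subunit, was not called, at 14.3 FPKM with sulfasalazine and 14.3 FPKM in controls.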
